A study of Drosophila melanogaster with 3 samples.

Results

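The vacuolar ATPase (V-ATPase) genes of Drosophila melanogaster were examined for promoter binding of Ets97D, also called Delg. This factor reads DNA through an ETS domain and is the fly counterpart of mammalian GABP alpha. The members are the protein-coding genes whose symbol begins with Vha in the Release 6 annotation, which are 33 of 13968 protein-coding genes. By their names they make up 14 subunits, of which 8 belong to the V1 sector (13 genes), 5 to the V0 sector (18 genes) and 1 is an accessory subunit (2 genes). A member counted as carrying a peak when the summit, the position of highest signal in a region, lay within 500 bp of any of its transcription start sites (TSSs), and a gene with an optimal peak is called bound below.

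The chromatin came from whole embryos 0 to 24 h old, males and females pooled, from the transgenic line Delg-GFP, which stably expresses Ets97D with GFP at its C terminus. Sonicated chromatin was pulled down with an anti-GFP antibody, and the recovered DNA was sequenced (ChIP-seq). The 3 biological replicates came from separate samples of this 1 line and form 1 group, so no genotypes, stages or treatments are compared, and the sequences that drive the fusion are not given in the labels. Whole embryos mix all tissues, so weaker binding in many cells and stronger binding in few cells cannot be told apart.

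The V-ATPase is a rotary proton pump of lysosomes, endosomes and some plasma membranes. Its V1 sector in the cytosol hydrolyses ATP and turns a central stalk, and the membrane-embedded V0 sector moves protons through a ring of c subunits past subunit a. Acid in the lumen drives lysosomal hydrolases, the loading of vesicles and, in insects, fluid transport by epithelia. Many subunits of the fly pump are encoded by several paralogs, which lets copies of 1 subunit be compared.

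The regions analysed are the authors' lists for the dm6 build. The optimal set, which passed their test of reproducibility between replicates (IDR, irreproducible discovery rate), held 5595 peaks, and its lowest signal was 89.1. A list made from the pooled replicates was longer, with 27625 regions. The lists of replicates 1, 2 and 3 held 24391, 28843 and 29122 regions, peaks and background together. The signal is the authors' value per region and its scale is not stated. For replicates it is given relative to the median of the 5595 strongest regions of the same list, called the strongest set, so that a relative signal of 1 is a middling strong region. The lists bottomed out at relative signals of 0.190, 0.165 and 0.154. They hold no read counts, so the sequencing depth is unknown.

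The sequences below are shown to compare the words under bound promoters, which range from several to none. Each holds the 101 bases centred on a summit, read on the strand of the gene and taken from the NCBI RefSeq sequence of the dm6 build. Capitals mark words of a panel of 12, found on either strand. At the TSS of VhaSFD, which encodes subunit H, the optimal summit lay at −1 bp, where negative positions are upstream of the TSS. There, at chr2L:16727777-16727877 on the minus strand, stood the word TATCGATA (the DNA replication-related element, bound by DREF), further copies of its part CGATA and 1 CAGCTG, an E-box.
VhaSFD, summit: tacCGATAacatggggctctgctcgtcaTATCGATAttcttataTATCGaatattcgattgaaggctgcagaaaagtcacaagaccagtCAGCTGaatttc
The summit of Vha68-2 at −131 bp (chr2L:12974141-12974241, plus strand) and the second summit of Vha26 at 1 bp (chr3R:5591714-5591814, plus strand) held GGTCACAC, the core of the promoter motif bound by M1BP, in opposite directions. The second summit of Vha26 was not matched in every replicate's strongest set, as described below.
Vha68-2, summit: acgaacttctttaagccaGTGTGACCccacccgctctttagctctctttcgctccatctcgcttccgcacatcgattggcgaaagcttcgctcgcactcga
Vha26, second summit: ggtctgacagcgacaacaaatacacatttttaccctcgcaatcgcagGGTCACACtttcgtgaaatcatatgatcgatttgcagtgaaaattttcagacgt
The core ETS word CCGGAA stood under 1 optimal summit, that of Vha13, the member whose peak was weakest when the strongest of each member were compared (chr3R:19644393-19644493, minus strand).
Vha13, summit: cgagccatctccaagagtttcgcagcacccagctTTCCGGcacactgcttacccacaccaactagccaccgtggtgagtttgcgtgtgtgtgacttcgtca
The second summit of VhaM9.7-a (chr3L:4262644-4262744, plus strand) held CAGGTAG, the word bound by the early embryonic factor Zelda, between 2 copies of CGATA. It too was not matched in every replicate's strongest set.
VhaM9.7-a, second summit: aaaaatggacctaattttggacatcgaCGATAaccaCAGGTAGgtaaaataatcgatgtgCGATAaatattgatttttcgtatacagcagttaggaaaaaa

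The strongest promoter of the family, that of Vha55, and the promoters of paralogs without a peak are shown in the same way from 70 bp upstream to 30 bp downstream of the TSS. Vha55 was chosen for display after its values were seen. Its window (chr3R:12627799-12627899, minus strand) covers the summit at −44 bp and held no word of the panel, while its longer promoter window, from 250 bp upstream to 50 bp downstream of the TSS, holds TATCGATA with its part CGATA.
Vha55, start: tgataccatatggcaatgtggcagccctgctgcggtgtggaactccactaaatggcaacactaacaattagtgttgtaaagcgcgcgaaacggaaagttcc
ETS words stood at the starts of Vha36-3 (chrX:2580530-2580630, minus strand) and VhaM9.7-d (chr3R:16975134-16975234, plus strand), and neither gene had an optimal peak. In Vha36-3 the word lies within a palindrome flanked by CAGCTG on both sides.
Vha36-3, start: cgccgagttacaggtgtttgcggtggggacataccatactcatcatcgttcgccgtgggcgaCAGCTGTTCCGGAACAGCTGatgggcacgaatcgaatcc
VhaM9.7-d, start: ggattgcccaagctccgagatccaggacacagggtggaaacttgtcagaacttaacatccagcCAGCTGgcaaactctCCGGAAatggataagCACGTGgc
VhaM9.7-c (chr3L:4186835-4186935, minus strand) is a bound paralog of VhaM9.7-d, with its summit at −33 bp, and had no word of the panel here. Nor had Vha68-3 (chr2L:12978716-12978816, plus strand), the unbound paralog of Vha68-2. The other bound paralogs of VhaM9.7-d did hold words at their starts, CGATA at VhaM9.7-b and both CGATA and CAGGTAG at VhaM9.7-a. In the longer promoter windows, TATAAA was found at VhaM9.7-c, CGATA and TATAAA at Vha68-3, and no word of the panel at Vha68-2. The window of Vha68-2 is set from another of its 5 TSSs than the one nearest its summit. It does not reach that summit, which held GGTCACAC as shown above.
VhaM9.7-c, start: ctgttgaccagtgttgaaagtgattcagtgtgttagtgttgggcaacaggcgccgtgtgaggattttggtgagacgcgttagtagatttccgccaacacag
Vha68-3, start: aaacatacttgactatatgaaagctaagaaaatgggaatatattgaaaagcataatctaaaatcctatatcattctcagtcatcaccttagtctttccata

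Of the 33 members, 17 (51.5%) had an optimal promoter peak, against 36.5% of all protein-coding genes. The strongest peaks of the 17 lay between signals of 112 and 844 with a median of 238, while the strongest promoter peaks of all 5097 genes with one had a median of 188. Peaks were found at 13 of the 14 subunits, and subunit F was the one without. When each summit was given to its nearest TSS only, 12 members (36.4%) kept a peak, against 27.5% of all genes. The 5 members that lost theirs hold only summits that lie nearer to a neighbour. Vha26, VhaM9.7-a and VhaM9.7-b stayed among the 12 only through weaker second summits, with a signal of 112 each. None of these was matched in every replicate by the rule of 150 bp given below. The difference from the 27.5% rests on these members, and the 27.5% was not limited to matched summits. With any region of the pooled list, 22 members (66.7%) had one, against 59.0% of all genes. No test was made of these differences from the background.

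The replicates named nearly the same members. In the strongest sets, 17, 15 and 17 members had a region in replicates 1, 2 and 3, which is 51.5%, 45.5% and 51.5% of the members against 35.6%, 36.6% and 34.7% of all genes. The mean was 16.3 ± 1.15 members (SD, n = 3). Vha13 and VhaAC45 were missing from the strongest set of replicate 2, and no replicate added a member to the 17. When each of the 3 replicates had to hold a summit of its strongest set within 150 bp of the optimal one, 15 members (45.5%) were left, against 29.3% of all genes. In the full lists 21, 22 and 25 members (63.6%, 66.7% and 75.8%) had a region, against 55.2%, 58.4% and 58.7% of all genes, a mean of 22.7 ± 2.08 members (SD, n = 3).

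**Figure D1:**
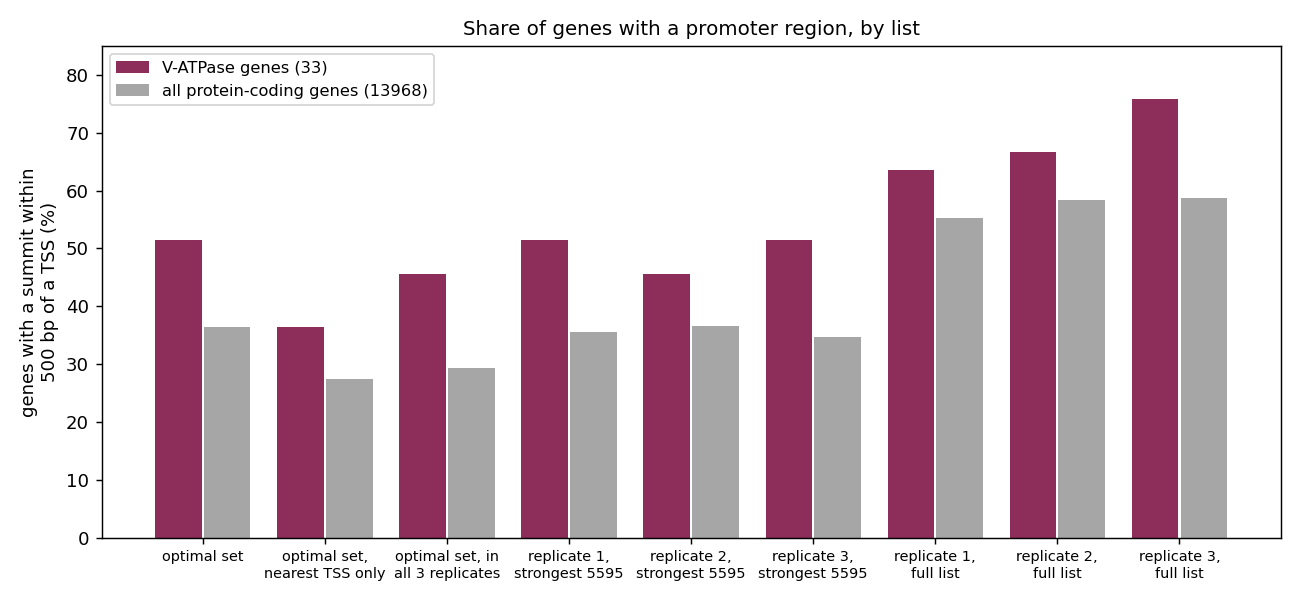
Share of genes (percent, vertical axis) with a summit within 500 bp of a TSS, for V-ATPase genes (dark bars, 33 genes) and all protein-coding genes (grey bars, 13968 genes) in each list. The dark bar is the higher of the pair in all 9 pairs shown, with 51.5% against 36.5% in the optimal set.

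Among V1 genes, 8 of 13 (61.5%) had an optimal peak, beside 36.5% of all protein-coding genes. The highest signal of the whole family was at Vha55 (FBgn0005671), the single gene for subunit B, which forms the catalytic head together with subunit A. Its peak covered chr3R:12627700-12628112 and ranked 163 of 5595 with a signal of 844. The relative signals were 5.21, 4.58 and 5.36 in replicates 1, 2 and 3, a mean of 5.05 ± 0.415 (SD, n = 3). No other member reached 3 in any replicate, so Vha55 did not overlap with the rest.

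Subunit A, which holds the ATP-hydrolysing site, has 3 paralogs, of which Vha68-1 and Vha68-2 were bound. Vha68-1 (chr2L:13000770-13004107) had an optimal signal of 238 and relative signals of 1.72, 1.80 and 1.25 in replicates 1, 2 and 3. Vha68-2 (chr2L:12974322-12978607) had 178 in the optimal set and relative signals of 0.948, 1.03 and 1.24. The ratio of Vha68-1 over Vha68-2 was 1.82, 1.75 and 1.01, so the copies were almost level in replicate 3. Vha68-3 lies 178 bp downstream of Vha68-2, and only replicate 3 listed a region there, with a relative signal of 0.162, close to the floor of that list. Its nearest optimal summit was the one at the start of Vha68-2, 4595 bp away.

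Subunit D is part of the central stalk, and 1 of its 3 genes was bound. Vha36-1 had an optimal signal of 355 and relative signals of 2.24, 1.56 and 2.53 in replicates 1, 2 and 3 (mean 2.11 ± 0.498, SD, n = 3), the second highest among V1 genes. Vha36-2 had no region in any list. Vha36-3 had none in the optimal and pooled lists and 1 region in replicate 3, with a relative signal of 0.160, although its start holds the ETS word shown above.

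Subunit F, the partner of D in the stalk, was the subunit with no optimal peak at either gene. Vha14-1 had a pooled region with a signal of 56.7 at rank 8579, at −120 bp. Its relative signals were 0.551, 0.416 and 0.169, with summits at −122, −184 and 196 bp, so the region of replicate 3 was a different one on the other side of the TSS. An optimal peak with a signal of 198 lay 796 bp from the TSS of Vha14-1, just outside the zone, at the promoter of Gmppa. Vha14-2 was listed in replicate 3 alone, with a relative signal of 0.158.

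The stator and regulatory subunits of V1 are each encoded by 1 gene, and all had a peak. Vha44 (subunit C, which in yeast leaves the pump when the sectors come apart) had relative signals of 1.18, 1.01 and 1.72, and Vha26 (subunit E of the peripheral stalks) had 1.94, 1.40 and 1.38, in replicates 1, 2 and 3. Their optimal signals were 228 and 254. VhaSFD (subunit H, which in yeast holds free V1 inactive) was weaker and even, with 0.961, 0.767 and 0.837 and an optimal signal of 141. Vha13 (subunit G of the peripheral stalks) had the lowest signal among the strongest peaks of the bound members, 112 at rank 4386. Its relative signals of 1.06, 0.409 and 0.627 varied most among the bound V1 genes relative to their mean (0.697 ± 0.330, SD, n = 3), and in replicate 2 its region ranked 8140, outside the strongest set.

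**Figure D2:**
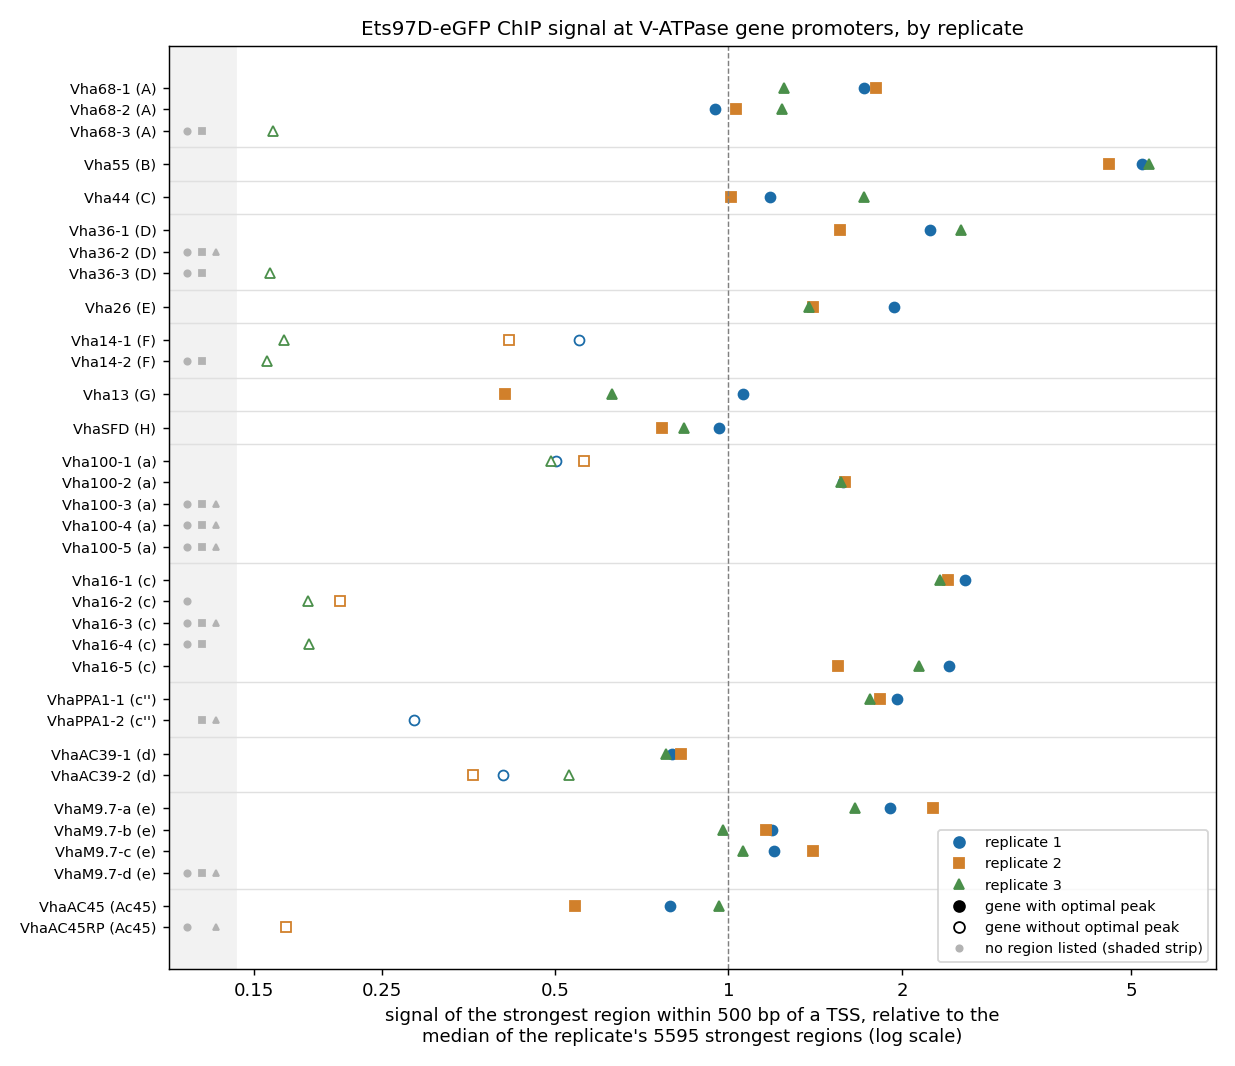
Relative signal (horizontal log axis, 1 is the median of a replicate's strongest set) of the strongest region within 500 bp of a TSS, for each of the 33 genes, with the subunit in brackets. Filled marks are genes with an optimal peak and open marks genes without one, circles, squares and triangles are replicates 1, 2 and 3, and marks in the shaded strip had no region in that list. Vha55 stands at the far right near 5.05, and 6 genes have marks in the strip only.

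Among V0 genes, 8 of 18 (44.4%) had an optimal peak, near the 36.5% of all protein-coding genes. Subunit a, which forms the proton channels and directs the pump to its membrane, has 5 paralogs, and Vha100-2 (chr3R:18390323-18399169) was the one with an optimal peak. Its signal was 261, and its relative signals of 1.58, 1.59 and 1.57 in replicates 1, 2 and 3 (mean 1.58 ± 0.0113, SD, n = 3) were the most even of the family. Vha100-1, known for its work at neuronal synapses, came closest of the other copies, with a pooled signal of 82.6 at rank 6025, just under the lowest optimal signal of 89.1. Its relative signals were 0.501, 0.561 and 0.492. The ratio of Vha100-2 over Vha100-1 was 3.14, 2.83 and 3.19, and the copies did not overlap. Vha100-3, Vha100-4 and Vha100-5 had no region in any list. Vha100-4 starts 517 bp beyond the end of Vha100-2, and the main TSSs of the 2 genes lie 7123 bp apart.

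Subunits c and c'' form the rotating ring. Of 5 genes for subunit c, 2 had a peak. Vha16-1 had an optimal signal of 399 at rank 535, and its relative signals were 2.57, 2.40 and 2.33 in replicates 1, 2 and 3 (mean 2.43 ± 0.121, SD, n = 3), second to Vha55 in the family by the mean. Vha16-5 (chr2L:10736319-10737043) had 337 in the optimal set and 2.41, 1.55 and 2.14 in the replicates, so the ratio of Vha16-1 over Vha16-5 was 1.07, 1.55 and 1.09. Vha16-2 had a pooled region with a signal of 30.6 at rank 17729 and was listed in replicates 2 and 3 at 0.212 and 0.186. Vha16-3, which lies 985 bp from Vha16-2, had no region in any list, and Vha16-4 had 1 region in replicate 3 at 0.187. For subunit c'', VhaPPA1-1 (chr3R:14902330-14904061) had an optimal signal of 307 and relative signals of 1.96, 1.83 and 1.76. Its tandem copy VhaPPA1-2, 2052 bp away, was listed in replicate 1 alone, at 0.285.

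Subunit d couples the stalk to the ring. VhaAC39-1 (chrX:3880748-3882967) had an optimal signal of 140, and its relative signals were 0.798, 0.828 and 0.778 in replicates 1, 2 and 3. VhaAC39-2 had a pooled signal of 67.0 at rank 7346 and relative signals of 0.406, 0.360 and 0.529. The highest value of VhaAC39-2 lay below the lowest of VhaAC39-1, and the ratio of VhaAC39-1 over VhaAC39-2 was 1.96, 2.30 and 1.47.

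Subunit e, a small hydrophobic subunit of V0, is encoded by 4 genes, and 3 of them had a peak, more than for any other subunit. VhaM9.7-a (chr3L:4262705-4263464) had an optimal signal of 322 and relative signals of 1.91, 2.26 and 1.66 in replicates 1, 2 and 3. VhaM9.7-c (chr3L:4186018-4186865) had 203, with 1.20, 1.40 and 1.06, and VhaM9.7-b (chr3L:21539862-21541215) had 176, with 1.19, 1.16 and 0.978. By strongest region, VhaM9.7-a was the highest of the copies in every replicate, and VhaM9.7-b and VhaM9.7-c overlapped. The strongest optimal summits of VhaM9.7-a and VhaM9.7-b, at −210 and −362 bp, lie nearer to a neighbouring gene. Their weaker optimal summits nearest their own TSSs, at −11 and −71 bp, had a signal of 112 each, below the 203 of VhaM9.7-c. The ratio of VhaM9.7-a over VhaM9.7-c was 1.59, 1.62 and 1.57, and that of VhaM9.7-c over VhaM9.7-b was 1.01, 1.21 and 1.08. VhaM9.7-d had no region in any list.

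The accessory subunit Ac45, which helps to assemble and sort the pump, has 2 genes. VhaAC45 had an optimal signal of 131 and relative signals of 0.791, 0.542 and 0.963 in replicates 1, 2 and 3, with the region of replicate 2 at rank 5919. VhaAC45RP had a pooled region with a signal of 28.0 at rank 20028 and was listed in replicate 2 alone, at 0.171.

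Across subunits, each of the 5 subunits with a single gene was bound, against 12 of the 28 genes that have a paralog, which is near the 36.5% of all protein-coding genes. By nearest TSS these were 4 of 5 against 8 of 28, the latter near the 27.5% of all genes. Vha26 among the 4, and VhaM9.7-a and VhaM9.7-b among the 8, counted only through their weaker second summits. In the strongest 50% of the optimal peaks they were 3 of 5 against 10 of 28, for which no share over all genes is given. Of the 9 subunits with paralogs, 5 had an optimal peak at exactly 1 copy (Vha36-1, Vha100-2, VhaPPA1-1, VhaAC39-1 and VhaAC45), 3 had peaks at several copies (subunits A, c and e) and subunit F had none. In each of the following settings, 3 subunits had a peak or region at exactly 1 copy. Where summits went to their nearest TSS only, the copies were Vha16-1, VhaPPA1-1 and VhaAC39-1. Where the weaker part of the optimal set was left out, they were Vha36-1, Vha100-2 and VhaPPA1-1. Where the whole pooled list was used, they were Vha36-1, Vha14-1 and VhaPPA1-1. For 7 pairs of paralogs with a region in every replicate, the exact paired permutation test (two-sided) over the 3 replicates gave p = 0.25, the smallest it can give, so no pair could pass the threshold of 0.05. The adjusted p over the 7 pairs was also 0.25. The copy named first is the one with the higher signal at its strongest region, and it was higher in 3 of 3 replicates in each pair. Vha100-1 and VhaAC39-2 are also the copies without an optimal peak, and that set was made from these same replicates. The direction is therefore a description and no separate support. The mean log2 ratios were 1.61 ± 0.09 for Vha100-2 over Vha100-1 and 0.91 ± 0.33 for VhaAC39-1 over VhaAC39-2 (SD, n = 3). For subunit e they were 0.80 ± 0.15 for VhaM9.7-a over VhaM9.7-b, 0.67 ± 0.02 for VhaM9.7-a over VhaM9.7-c and 0.13 ± 0.13 for VhaM9.7-c over VhaM9.7-b. They were 0.56 ± 0.48 for Vha68-1 over Vha68-2 and 0.28 ± 0.30 for Vha16-1 over Vha16-5, with the spread between replicates about as large as the difference.

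Of the 16 members without an optimal peak, 5 had a region in the pooled list (Vha14-1, Vha100-1, Vha16-2, VhaAC39-2 and VhaAC45RP) and 5 had 1 region in a single replicate (Vha68-3, Vha36-3, Vha14-2, Vha16-4 and VhaPPA1-2). The other 6 (Vha36-2, Vha100-3, Vha100-4, Vha100-5, Vha16-3 and VhaM9.7-d) had none in any list. The promoter zones were searched for repeated words of 36 bases, since paralogs can share sequence. At least 98.4% of the words in each member's zone were unique in the 7 chromosome arms, and all were unique for the members without an optimal peak. A peak was found at 3 of 9 members with 1 exon (33.3%), against 14 of 24 with more exons (58.3%). The shares over all genes were 18.8% of those with 1 exon and 39.9% of those with more.

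In the optimal set, the strongest summits lay upstream. All 17 members with a peak had the summit of the strongest one upstream of the nearest annotated TSS, between −362 and −1 bp with a median of −93.0 bp, while 88.1% of all genes with a peak did, with a median of −75.0 bp. In 16 of the 17 it was upstream of every TSS of the gene. The exception was Vha100-2, whose summit at −271 bp from an internal TSS lies inside the gene, 1970 bp downstream of its outermost TSS. For the optimal summits closest to a TSS, the side changed between replicates. VhaAC39-1, at −7 bp, had summits at 10, −39 and 11 bp in replicates 1, 2 and 3. VhaSFD, at −1 bp, had them at −26, 34 and −21 bp. In the other bound members the strongest summit was upstream in every replicate. Members held 2 or more optimal peaks in 6 of 17 cases (35.3%), against 14.6% of all genes with a peak. These were Vha55, Vha26, Vha16-1, VhaPPA1-1, VhaM9.7-a and VhaM9.7-b. By the rule of 150 bp used above, the second summits of Vha55 and VhaPPA1-1 were matched in each replicate's strongest set. Those of Vha26, Vha16-1, VhaM9.7-a and VhaM9.7-b were not. Their signals were 112, 90.2, 112 and 112, near the lowest optimal signal of 89.1. The 14.6% of all genes was not limited to matched summits either. The signal of the second summit was between 0.188 times that of the first at Vha55 and 0.658 times at VhaPPA1-1. In 3 of the 6 the summits lay 199 or 200 bp apart. At Vha55 they lay 204 bp apart within the same region, at VhaM9.7-b 291 bp apart, and at Vha16-1 860 bp apart, each nearest a different TSS of the gene. Across the optimal set, 240 of 652 neighbouring summits within 1000 bp (36.8%) were 195 to 205 bp apart, none were closer than 199 bp, and 72.0% of the peaks were exactly 450 bp wide. Whether a second summit is a separate binding event was not tested.

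At 10 of the 17 members (58.8%) the strongest summit was shared with another gene, against 58.3% of all genes with a peak. All 10 neighbours lie on the opposite strand, head to head with the member's TSS nearest the summit. At Vha100-2 that TSS is internal, so the start of Vti1b lies inside the Vha100-2 gene. The member's own TSS was the nearer one in 2 of the 10, Vha68-1 and Vha55. Vha68-1 shares its summit, at −83 bp, with the gene for the growth kinase mTor, where it stood at −290 bp, and Vha55 at −44 bp with Snx3, a sorting nexin, at −158 bp. In the other 8 the summit lay nearer to the neighbour. Vha44 at −111 bp faced Hmgs, the hydroxymethylglutaryl-CoA synthase, at −12 bp. Vha26 at −199 bp faced noi, a splicing factor, at −105 bp, and VhaM9.7-b at −362 bp faced COX8, a subunit of cytochrome c oxidase, at −53 bp. VhaAC45 at −235 bp was almost midway to Gnptab, the enzyme that tags lysosomal hydrolases with mannose phosphate in mammals, at −202 bp. Vha100-2 at −271 bp shared its summit with Vti1b, a SNARE of endosomes in mammals, where it lay inside the gene at 204 bp. The neighbours of Vha36-1, Vha16-5 and VhaM9.7-a were CG8187, CG12299 and CG11586, at −9, −35 and −25 bp. To which of the paired genes the binding belongs was not tested.

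**Figure D3:**
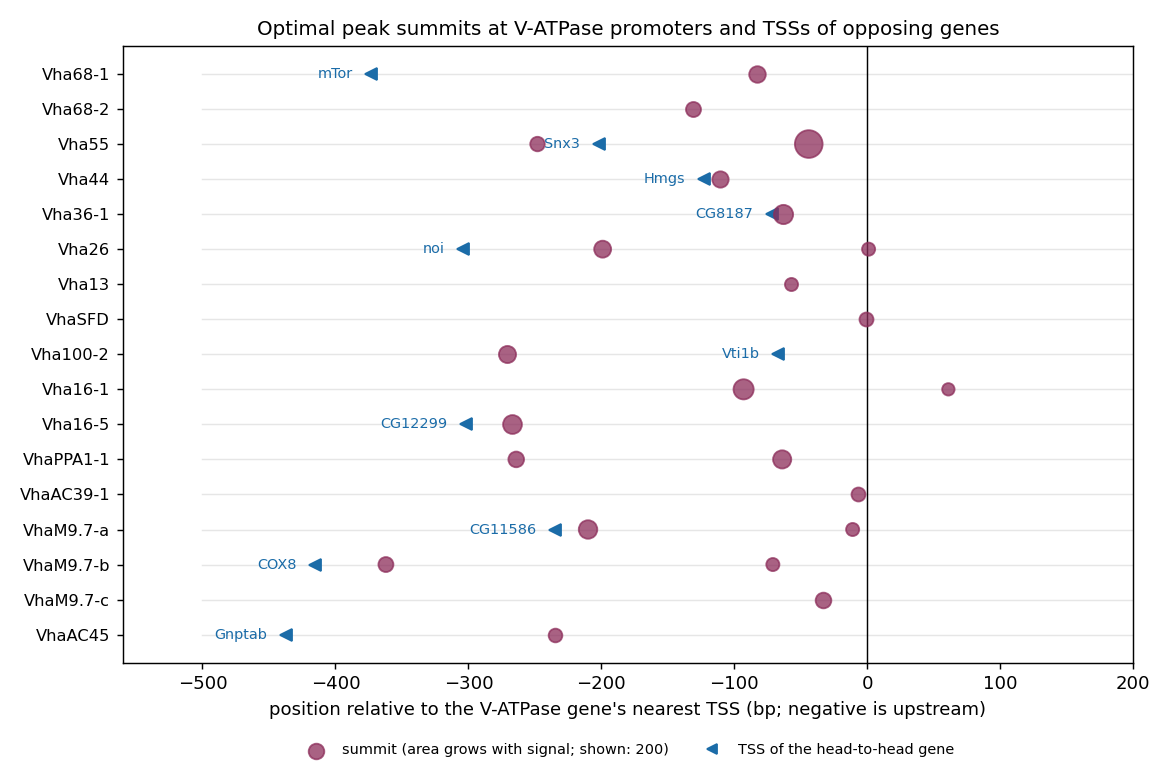
Position of each optimal summit (circles, area grows with the signal) relative to the nearest TSS of the V-ATPase gene on its row (horizontal axis in bp, negative is upstream), for the 17 genes with a peak, with the TSS of the head-to-head gene as a triangle. The strongest summit of each gene lies between −362 and −1 bp, and 10 rows carry a neighbour.

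Words of the panel were counted within 50 bp of all 23 optimal summits at members, against 4118 optimal promoter peaks of the whole set, on both strands. CCGGAA was under 1 of the 23 (4.35%), against 3.62% of promoter peaks, though under none with the summits of replicate 1, and the longer CCGGAAG, which contains it, under none, against 0.801%. CGATA was the most frequent word, under 9 (39.1%) against 37.7%, and under 18 in a window of 100 bp either side. The shares of promoter peaks are for 50 bp either side of the optimal summits. None are given for other windows or for the summits of single replicates, so those counts have no background beside them. TATCGATA, which contains it, was under 1 (4.35%) against 9.91%. The summits with CGATA were those of Vha68-1, Vha36-1, VhaSFD, Vha16-1, Vha16-5, VhaPPA1-1, VhaM9.7-b and both of VhaM9.7-a. GGTCACAC stood under 2 (8.70%) against 7.72%, and CAGCTG under 4 (17.4%) against 9.08%, or 2 within 25 bp of the summit. The E-box CACGTG, and TCACGTG, which contains it and is read by the lysosomal regulator Mitf, were under none of the members' optimal summits, against 1.38% and 0.316%, but each was under 1 with 100 bp either side and under 1 with the summits of replicate 2. The TATA word TATAAA was under 1 (4.35%) against 12.9%, and CAGGTAG under 1 (4.35%) against 0.364%. The TATAAA of VhaM9.7-b, the CAGGTAG of VhaM9.7-a and the GGTCACAC of Vha26 lay under second summits not matched in every replicate. The AP-1 word TGACTCA was under none, against 1.12%, and so was GAGAGAG, read by the factor Trl, against 1.24%.

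Across promoters, from 250 bp upstream to 50 bp downstream of the main TSS, CCGGAA was in 1 of 17 members with a peak, 3 of 16 without one and 6.74% of all 13967 promoters. The 3 without a peak were Vha36-3, Vha100-4 and VhaM9.7-d. CGATA was in 10 of 17 members with a peak, 5 of 16 without one and 47.0% of all promoters. TATCGATA was in 2 of 17 with a peak, none of the 16 without one and 8.94% of all promoters. GGTCACAC was in 2 with a peak, 2 without one and 7.53% of all promoters. CAGCTG was in 4 of each kind and 17.9% of all promoters, and TATAAA in 8 of each kind and 45.3% of all promoters. CACGTG was in none with a peak, 2 without one and 4.28% of all promoters. This window does not cover every bound site. The strongest summits of Vha100-2, Vha16-5 and VhaM9.7-b lay beyond it, at −271, −267 and −362 bp, and that of Vha68-2 lay nearest another TSS, also outside it. Vha44 and Vha16-1 have 2 TSSs each, and there too the window is set from another TSS than the one nearest the strongest summit. For these genes it did not hold the CAGCTG and CGATA found under their summits. A match is a description of letters in the window, and within this window no word marked the bound members off from the unbound ones without exception.

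Genes that work with the pump were read from lists. Of 3 genes for assembly and regulation of the V-ATPase, Rbcn-3A, a part of the complex that puts the sectors together, had a peak with a signal of 107, and Rbcn-3B and Mitf had none. Lysosomal nutrient sensing, the Ragulator and Rag GTPases that dock on the pump, had 6 of 7 genes with a peak (85.7%, beside 36.5% of all genes), at a median signal of 154, with Lamtor3 at 243 and Lamtor4 at 235. In the strongest sets 4, 6 and 6 of the 7 had a region in replicates 1, 2 and 3. RagA-B had relative signals of 0.194, 0.344 and 0.958, with its optimal summit at −438 bp. Lamtor1 was the exception, with relative signals of 0.544, 0.664 and 0.512 in replicates 1, 2 and 3. Of 16 genes for lysosomal enzymes and membrane proteins, 7 (43.8%) had a peak, near the 36.5% of all genes, among them spin, a lysosomal exporter, at 220. Npc1a, a cholesterol transporter, shares its peak of 213 with the proteasome gene Prosalpha6, whose TSS is nearer (−104 bp from Npc1a, −31 bp from Prosalpha6). CtsL1, a cathepsin, shares its peak of 219 with Rpn13 (−123 and −148 bp), so both peaks count in each list. Lamp1, Trpml, cathD and Gba1a had none.

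The mitochondrial F-type ATP synthase, the rotary relative of the V-ATPase that makes ATP, had a peak at 10 of 16 genes (62.5%) with a median signal of 205, and the proteasome at 28 of 48 (58.3%) with a median of 195, beside 17 of 33 (51.5%) and 238 for the V-ATPase and 36.5% of all genes. None of 16 proteasome paralogs with the suffix R or T had a peak, against 28 of the other 32 genes, and none of 4 ATP synthase genes with the suffix L had one, against 10 of the other 12. This split by suffix was chosen after the values were seen, and no test was made. Below the optimal set, Rpt3R, Rpt6R, Prosbeta2R2 and ATPsynepsilonL had a listed region in every replicate. The relative signals of Rpt3R were 0.305, 0.702 and 0.470 in replicates 1, 2 and 3.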

How the data were processed

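The 3 replicates are the samples that the labels number 1 to 3. The authors deposited region lists on dm6, and the signal per region is their own measure of enrichment. Per the file headers, it was derived from the alignments with a control. Its scale is not stated, and aligner, peak caller and IDR threshold were not given in the sources used here. Control libraries were not analysed here, and without counts no counting error can be given.

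A summit is the region's start plus the offset in its last column, counted from 1. Gene models are from the Ensembl annotation of Release 6 and sequences from NCBI RefSeq of the same assembly, and region ends lay within its chromosome lengths. All regions within 500 bp of a TSS were taken and the strongest described. Every member is named, other genes only where they share a member's summit or belong to a list; Gmppa was added after its value was seen. Subunits were assigned from gene names and general knowledge. Of the list names, 3 (Cp1, CtsD and CtsB1) matched no symbol. Members, lists, words and tests were chosen with earlier results of these data known, and the repeat search of 36 bases after seeing these values. Alternatives were other zones, lists and windows and leaving out each replicate. The procedures were tested on simulated data. Python 3.11.15, NumPy 2.4.6 and pandas 2.3.3 were used.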

Additional observations from a re-analysis of the deposited data

How the results depend on the processing

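The number of members with an optimal peak, 17, was 15 with a zone of 250 bp, 18 with 1000 bp, 12 by nearest TSS and 13 in the strongest 50% of the peaks. The number of subunits with exactly 1 bound copy, 5, fell to 3 by nearest TSS, in the strongest 50% and in the pooled list, as the construction of each removes or adds copies. The 3 subunits differed between these settings. The optimal set was made from all 3 replicates and was not called again, so leaving out 1 replicate means that a peak needs a summit in the strongest sets of the other 2, which can lower the count but not raise it. This gave 15 to 17 members, 11 to 13 subunits with a peak, 4 to 5 subunits with exactly 1 bound copy, a mean of 16.0 to 17.0 members and a median relative signal of 1.39 to 1.49. Of the word counts under another window or replicate, 47 kept within 1.5 times and 13 did not. Within 100 bp of a summit, CGATA was under 18 peaks in place of 9, TATAAA under 3 in place of 1, TATCGATA under 2 in place of 1, and CACGTG and TCACGTG under 1 each in place of 0. Within 25 bp, CAGCTG was under 2 in place of 4 and GGTCACAC under 1 in place of 2. No shares over all promoter peaks are given for these windows. Among strongest summits, those of replicate 2 gave 0 for TATCGATA and GGTCACAC, 2 for CAGCTG and 1 each for CACGTG and TCACGTG, and those of replicate 1 gave 0 for CCGGAA. With all listed regions the mean was 22.7 members. Depth is unknown, and regions below the floor of a list cannot be seen.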
